A study of Mus musculus with 6 samples.

Results

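The serum amyloid A genes Saa1, Saa2, Saa3 and Saa4 encode small apolipoproteins that the liver secretes into plasma, and they were followed here in the livers of mice after 2 days on a high fat diet. The 4 genes were taken as the probe sets whose single symbol in the platform annotation is one of these names. Each of the 4 was measured by 1 probe set, so no choice between probe sets was needed, and the 4 stand among 19938 genes tested. The HFD group was C57BL/6 mice, an inbred strain, fed a high fat diet freely for 2 days. The RD group was C57BL/6 mice fed a regular diet freely for the same 2 days. Each diet had 3 biological replicates with 1 array of total liver RNA each, which gives 6 arrays. The letters NI stand in each of the 6 titles without an explanation, so any condition common to both diets is unknown. The labels state neither the age and sex of the mice nor what the diets contained.

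Serum amyloid A proteins travel in plasma on high density lipoprotein. Saa1 and Saa2 encode the acute phase forms, which hepatocytes make in large amounts when interleukin-1, tumour necrosis factor and interleukin-6 act through the transcription factors NF-kB, C/EBP and STAT3. In the mouse, Saa3 is also made by macrophages and fat cells. Saa4 encodes the constitutive form, which the liver makes without an inflammatory stimulus.

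The genes lie side by side on mouse chromosome 7, in the order Saa3, Saa4, Saa1 and Saa2. Saa1 and Saa2 point away from each other, and their upstream sequences are close copies. The 250 bases before each start site are shown because Saa1, Saa2 and Saa3 rose in HFD and Saa4 did not pass the test, so that the copies and the differing members can be read side by side. They are RefSeq sequences of build GRCm38.p6, written 5′ to 3′ on the strand of the gene. Capitals mark matches to the C/EBP pattern TTGCNNAA and to the broad NF-kB pattern GGGNNNNNCC on either strand.
Saa1, chr7:46742981-46743230, minus strand: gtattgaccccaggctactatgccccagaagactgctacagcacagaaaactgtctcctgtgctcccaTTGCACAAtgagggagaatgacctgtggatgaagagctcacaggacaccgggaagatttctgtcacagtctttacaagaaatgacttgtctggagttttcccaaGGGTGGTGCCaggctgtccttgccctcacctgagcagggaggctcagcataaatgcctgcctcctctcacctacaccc
Saa2, chr7:46751583-46751832, plus strand: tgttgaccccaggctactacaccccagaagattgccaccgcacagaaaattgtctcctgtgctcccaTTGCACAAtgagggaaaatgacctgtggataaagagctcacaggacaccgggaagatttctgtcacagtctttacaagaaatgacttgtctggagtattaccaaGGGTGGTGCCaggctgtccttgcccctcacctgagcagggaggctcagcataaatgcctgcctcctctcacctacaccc
Saa3, chr7:46715677-46715926, minus strand: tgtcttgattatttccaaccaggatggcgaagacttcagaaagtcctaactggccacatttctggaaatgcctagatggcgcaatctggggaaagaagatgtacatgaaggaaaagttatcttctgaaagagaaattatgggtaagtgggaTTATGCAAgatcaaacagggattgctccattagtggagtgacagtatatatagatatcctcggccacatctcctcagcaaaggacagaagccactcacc
Saa4, chr7:46732604-46732853, minus strand: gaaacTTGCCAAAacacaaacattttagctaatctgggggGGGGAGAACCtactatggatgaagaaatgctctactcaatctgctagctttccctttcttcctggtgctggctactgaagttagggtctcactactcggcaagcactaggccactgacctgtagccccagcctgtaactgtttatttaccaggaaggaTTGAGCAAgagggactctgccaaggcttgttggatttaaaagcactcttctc

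In a global alignment, the Saa1 and Saa2 windows were identical at 238 of 251 columns, or 94.8%, with 11 mismatches and 2 gap positions. The other pairs were identical at 43.8% to 48.5% of columns, with Saa3 and Saa4 the least alike. The C/EBP pattern was found in the windows of all 4 genes, at 2 places in that of Saa4, against 9.56% of the 32851 windows of the same length in the table. In Saa1 and Saa2 it read TTGCACAA and lay 182 to 175 and 183 to 176 bases before the start. In Saa3 it lay 99 to 92 bases before the start on the opposite strand. The NF-kB pattern was found for Saa1, Saa2 and Saa4 and is common, at 45.8% of all windows. Neither the STAT pattern TTCNNNGAA nor the TATA pattern TATAAA was found on either strand in a member, against 7.02% and 12.4% of windows. The C/EBP and NF-kB matches did not overlap. These are matches of letters only, and no binding was measured.

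After 2 days of HFD, the acute phase genes Saa1 and Saa2 and the macrophage and liver gene Saa3 rose between 2.98-fold and 4.01-fold, while the constitutive gene Saa4 did not pass the test. In all, 3 of the 4 members rose and 0 fell. Of all genes tested, 3.11% rose by the same rule, an adjusted p under 0.05 in limma, and 0.256% rose with at least a 2-fold change, as those 3 did. The median log2 difference of the 4 members was 1.76, against a median just below 0 over all genes.

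Saa2 had log2 values of 10.96, 10.37 and 10.32 in HFD replicates 1, 2 and 3, against 8.52, 8.76 and 8.36 in RD replicates 1, 2 and 3. The lowest HFD value lay 1.56 above the highest RD value, so the diets were far apart. Saa2 averaged 10.55 ± 0.35 in HFD and 8.55 ± 0.20 in RD (SD, n = 3 each). Its log2 difference was 2.01 ± 0.17 (SE; adjusted p = 7.6e-04, limma with Benjamini-Hochberg adjustment), a 4.01-fold rise with a 95% interval of 3.05 to 5.29. Among the 3 members that rose, Saa2 had the smallest spread relative to its rise.

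Saa3 had log2 values of 10.35, 9.35 and 9.56 in HFD, against 7.61, 8.29 and 7.498 in RD, in the same order of replicates. The diets did not overlap, with HFD replicate 1 the highest and RD replicate 2 the nearest to the HFD arrays. The means were 9.75 ± 0.53 in HFD and 7.80 ± 0.43 in RD (SD, n = 3 each). The log2 difference of 1.95 ± 0.28 (SE; limma adjusted p = 0.0075) corresponds to a 3.87-fold rise, with a 95% interval of 2.49 to 6.01.

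Saa1 had log2 values of 8.14, 7.23 and 7.38 in HFD, against 5.66, 6.35 and 6.01 in RD. The diets did not overlap, and, as for Saa3, HFD replicate 1 and RD replicate 2 were the highest of their diets. Saa1 averaged 7.58 ± 0.49 in HFD and 6.01 ± 0.35 in RD (SD, n = 3 each), a log2 difference of 1.58 ± 0.25 (SE; limma adjusted p = 0.011) and a 2.98-fold rise with a 95% interval of 2.02 to 4.41. The RD mean of Saa1 lay at the 23.2nd percentile of all genes, and whether it lay at background was not tested, since no detection calls were used here.

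Saa4 had log2 values of 13.41, 13.35 and 13.37 in HFD, against 13.43, 13.51 and 13.45 in RD. All HFD values were below all RD values, but by as little as 0.01. A gap of this kind was common, since 11.7% of all genes had 3 HFD values below the 3 RD values. The means were 13.38 ± 0.03 in HFD and 13.46 ± 0.04 in RD (SD, n = 3 each), and the log2 difference of -0.08 ± 0.06 (SE) had a 95% interval of -0.23 to 0.06 and a limma adjusted p of 0.53. The Saa4 means lay at the 99.3rd percentile of all genes in both HFD and RD, where the highest value of the whole table was 14.86. Whether Saa4 values this high could still register a rise was not tested.

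**Figure D1:**
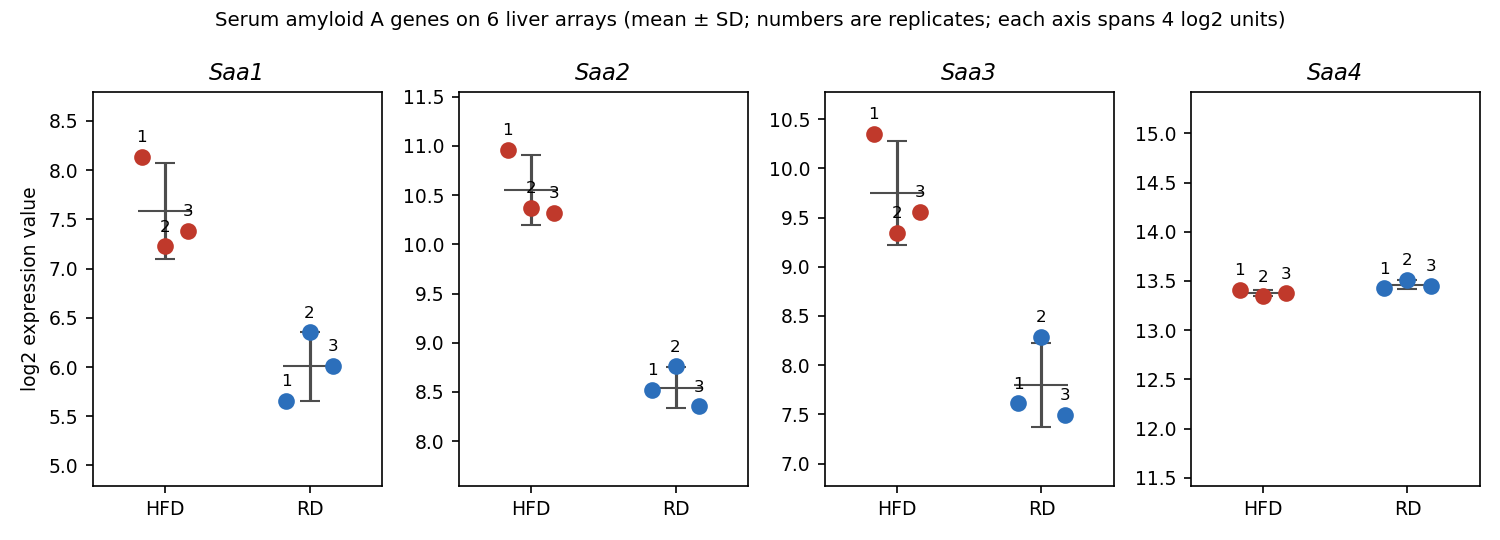
Log2 expression values of the 4 serum amyloid A genes on each array, HFD in red and RD in blue, with the mean and SD of 3 replicates in grey and replicate numbers above the points; each vertical axis spans the same 4 log2 units around the gene's mean. HFD values of Saa1, Saa2 and Saa3 lie above their RD values, while those of Saa4 lie between 13.35 and 13.51 in both diets.

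**Figure D2:**
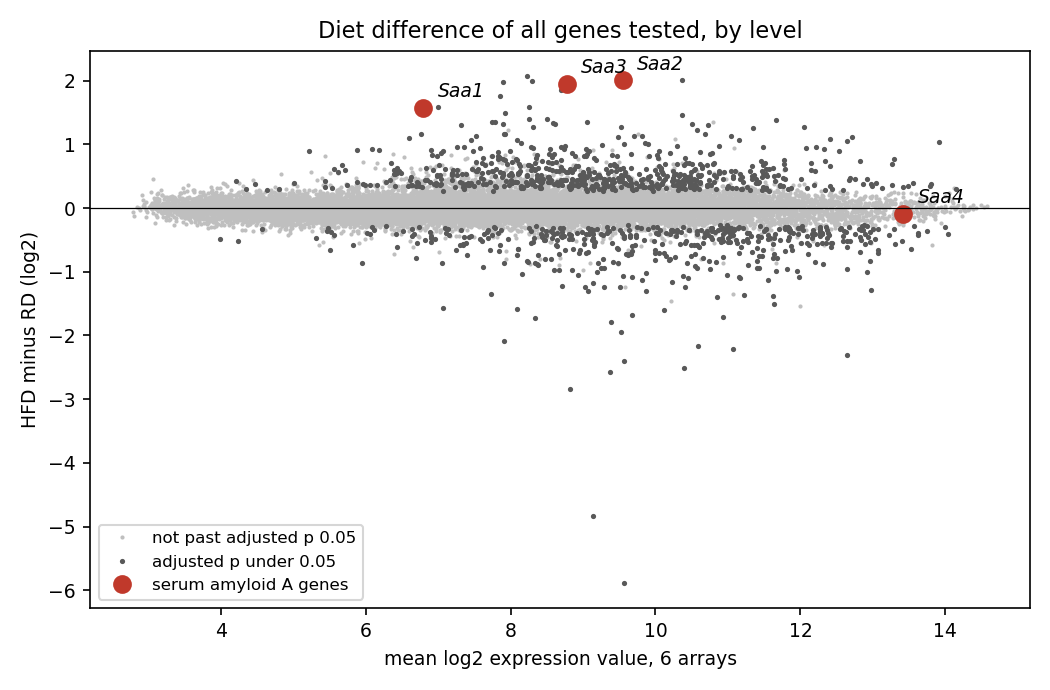
Difference between HFD and RD (log2, vertical) against the mean log2 value over 6 arrays (horizontal) for the 19938 genes tested, with calls in dark grey and the serum amyloid A genes in red. Saa2, Saa3 and Saa1 stand at 2.01, 1.95 and 1.58, and Saa4 stands at -0.08 among the brightest genes.

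The calls of Saa1 and Saa3 depended on what else was tested. With every probe set of the table tested, including those without a single gene symbol, their adjusted p was 0.065 and 0.053 in limma, and that of Saa2 was 0.010. A test against a fold of at least 1.5 kept Saa2 (adjusted p = 0.011, limma) and not Saa3 (adjusted p = 0.17) or Saa1 (adjusted p = 0.45). All 3 passed the test when any 1 array was left out, with adjusted p values up to 0.046 for Saa1, 0.0059 for Saa2 and 0.040 for Saa3.

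HFD replicate 1 had the highest value of Saa1, Saa2 and Saa3, by 0.76, 0.59 and 0.79 log2 units over the next HFD array. It also lay farthest out on the leading principal component of all genes, with a score of 21.5, while HFD replicates 2 and 3 had 12.7 and 12.6 and the RD arrays -16.5 to -14.5. Without it, the log2 differences were 1.30 for Saa1, 1.80 for Saa2 and 1.65 for Saa3. Within RD, replicate 2 was highest for all 4 members.

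The changes of the 4 genes were compared in pairs, with the per-array log2 difference between 2 members tested by an exact two-sided permutation of the array labels. This design cannot give a p below 0.10, so it cannot pass the threshold. The 95% intervals of these pairs are not from the permutation or from limma. They come from an unmoderated t with the variance pooled over the diets, which assumes normal values. The change of Saa4 was smaller than those of the other 3, by 2.09 log2 units against Saa2 (95% interval 1.501 to 2.68), 2.04 against Saa3 (1.03 to 3.05) and 1.66 against Saa1 (0.78 to 2.54), each with the smallest possible p of 0.10 (adjusted p = 0.15 over the 6 pairs). The changes of Saa2 and Saa3 differed by 0.05 log2 units, with an interval of -0.46 to 0.56 (exact permutation p = 0.80, also 0.80 adjusted). Saa1 changed by 0.43 log2 units less than Saa2, with an interval of -0.96 to 0.10 for Saa1 minus Saa2 (exact permutation p = 0.20, adjusted 0.24). It changed by 0.38 log2 units less than Saa3, with an interval of -0.81 to 0.06 for Saa1 minus Saa3 (exact permutation p = 0.10, adjusted 0.15). Saa1 and Saa2 are close paralogs, and RefSeq lists each name as a synonym of the other. A probe set of one may therefore also bind transcripts of the other, and their separate values are uncertain.

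The genes that flank the cluster on the chromosome did not pass the test. Of the 10 protein-coding genes with a value on each side of the cluster, 20 in all, 0 passed in limma and 1 had an unadjusted p under 0.05, Tmem86a at 0.23 ± 0.09 (log2 difference, SE; adjusted p = 0.21). Their log2 differences ran from -0.17 to 0.23, with a median of -0.01. Saal1, which adjoins Saa3 and carries the name serum amyloid A like, differed by 0.06 ± 0.07. Hps5, the first measured gene beyond Saa2, differed by -0.04 ± 0.08. Saa4 lies between Saa3 and Saa1 in this order.

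**Figure D3:**
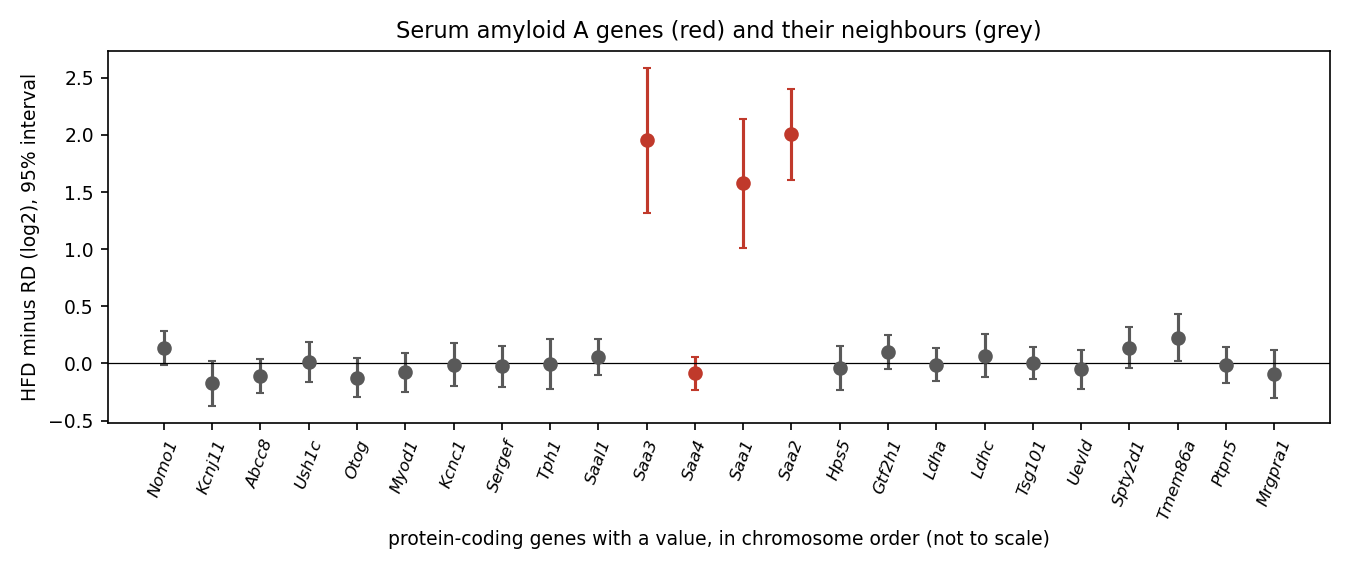
Difference between HFD and RD (log2, with 95% intervals) of the serum amyloid A genes in red and of 10 measured protein-coding genes on each side in grey, in chromosome order and not to scale. Saa3, Saa1 and Saa2 stand between 1.58 and 2.01, while Saa4 and the 20 neighbours lie between -0.17 and 0.23.

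In a list of other acute phase genes of the liver, 4 of the 27 measured rose and 2 fell, and 21 did not pass. Their median log2 difference was close to 0, at 0.00. The list includes 5 plasma proteins whose levels drop in an acute phase response, Alb, Ttr, Trf, Rbp4 and Ahsg, of which 0 passed in limma. It also includes 3 genes that do not encode plasma proteins, Mt1, Mt2 and Steap4, of which 1 fell. By this split, made after the values were seen, the other 19 held the 4 rises and 1 fall, with a median of 0.04. The background was 3.11% of all genes for a rise and 2.24% for a fall, here and for each list below.

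Orm2, an alpha-1-acid glycoprotein that carries lipophilic molecules in plasma, had log2 values of 11.65, 10.76 and 11.14 in HFD, against 9.67, 10.14 and 10.06 in RD. Lcn2, a lipocalin that binds bacterial siderophores, had log2 values of 11.69, 10.78 and 11.31 in HFD, against 9.74, 10.41 and 10.15 in RD. For both, the diets did not overlap, HFD replicate 1 was the highest array and RD replicate 1 the lowest, as for Saa1. Orm2 rose by 1.23 ± 0.21 (log2 difference, SE; limma adjusted p = 0.018) and Lcn2 by 1.16 ± 0.23 (adjusted p = 0.029). The Orm2 call was lost without HFD replicate 3 or RD replicate 1, and the Lcn2 call was lost without any 1 array other than HFD replicate 2 (adjusted p up to 0.068 and 0.099).

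The rises of the other 2 were smaller. Lbp, which hands bacterial lipopolysaccharide to its receptors, rose by 0.47 ± 0.07 and kept its call without any 1 array. The haemoglobin scavenger Hp rose by 0.36 ± 0.07, a call that leaving out any 1 array other than HFD replicate 3 ended. The 2 genes that fell were chosen after their values were seen. Mt1, a metal-binding metallothionein, had log2 values of 11.59, 12.66 and 12.75 in HFD, against 13.41, 13.80 and 13.67 in RD. It fell by 1.29 ± 0.28 on the log2 scale, lost without each single RD array. The protease inhibitor Serpina3n fell by 0.29 ± 0.07, lost without any 1 array. Also chosen after their values were seen, the acute phase genes Orm1 (-0.05 ± 0.07), Fgb (0.00 ± 0.07) and Crp (0.04 ± 0.06) had log2 differences near 0. Not all genes that failed to pass were this flat. Apcs differed by -0.47 ± 0.12 with no overlap of the diets (limma adjusted p = 0.063). Mt2 differed by -0.58 ± 0.17 (adjusted p = 0.090) and Orm3 by 0.69 ± 0.28 (adjusted p = 0.22).

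Of 6 measured cytokines that induce serum amyloid A, 1 rose, and 5 of 6 differences were positive, as were 49.2% of those of all genes, with a median of 0.31. Il1a, an interleukin-1 form, rose by 0.51 ± 0.09 (log2 difference, SE; limma adjusted p = 0.018), a call lost without RD replicate 1 or 2. Il1b, the secreted interleukin-1 form, had log2 values of 7.60, 7.24 and 6.79 in HFD, against 6.43, 6.65 and 6.60 in RD. Its diets did not overlap, but its difference of 0.65 ± 0.18 did not pass (adjusted p = 0.081). Lif differed by 0.32 ± 0.08 (adjusted p = 0.071) and Il6 by 0.29 ± 0.10 (adjusted p = 0.14), with all Il6 values between 3.33 and 3.88.

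Among 6 cytokine receptors 1 rose and 1 fell. Il22ra1, the receptor subunit through which interleukin-22 acts on hepatocytes, had log2 values of 10.61, 10.53 and 10.76 in HFD, against 9.68, 10.02 and 9.62 in RD. It rose by 0.86 ± 0.11 (log2 difference, SE; limma adjusted p = 0.0057), and the call held without any 1 array. Il6ra, the interleukin-6 receptor, had log2 values of 11.17, 10.80 and 11.28 in HFD, against 11.70, 11.77 and 11.67 in RD. It fell by 0.63 ± 0.12 on the log2 scale (adjusted p = 0.023), a call lost without each single RD array. Il1rap differed by -0.25 ± 0.08 (adjusted p = 0.11) and Osmr by 0.21 ± 0.16 (adjusted p = 0.52).

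Of 13 signalling proteins and transcription factors 1 rose and 1 fell. Cebpa, the liver-enriched C/EBP factor, had log2 values of 11.05, 11.12 and 10.79 in HFD, against 11.91, 11.83 and 11.72 in RD, with no overlap. It fell by 0.83 ± 0.10 on the log2 scale (SE; limma adjusted p = 0.0033) and held without any 1 array. Myd88, the adaptor of interleukin-1 and Toll-like receptors, rose by 0.49 ± 0.10, a call that leaving out any 1 array other than HFD replicate 3 ended. Rela, an NF-kB subunit, differed by 0.17 ± 0.07 (adjusted p = 0.20) and Nfkb2 by 0.12 ± 0.07 (adjusted p = 0.38). Cebpb, Cebpd and Stat3, chosen after their values were seen, differed by 0.14 ± 0.09, -0.04 ± 0.10 and 0.11 ± 0.10, and none passed. Transcript levels do not measure the activity of these proteins.

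Among 6 feedback inhibitors that NF-kB or STAT3 induces, 1 rose. Nfkbia, the inhibitor that holds NF-kB in the cytoplasm, rose by 0.36 ± 0.08 (log2 difference, SE; limma adjusted p = 0.034), a call that leaving out any 1 array other than RD replicate 1 ended. Socs3, the feedback inhibitor of STAT3 signalling, differed by 0.47 ± 0.20 (adjusted p = 0.23), Tnfaip3 by 0.38 ± 0.14 (adjusted p = 0.18) and Nfkbiz by 0.20 ± 0.07 (adjusted p = 0.13). The HFD values lay above the RD values for these 4 of the 6 genes, and for 14.0% of all genes. Bcl3 (-0.15 ± 0.12) and Zc3h12a (-0.03 ± 0.10), chosen after their values were seen, had overlapping values.

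Of 8 genes of the glucocorticoid receptor and its targets, which act with cytokines on liver acute phase genes, 1 rose. The kinase Sgk1 rose by 0.38 ± 0.07 (log2 difference, SE; limma adjusted p = 0.018), lost without HFD replicate 1 or 3 or RD replicate 1 or 2. The other named targets had lower means in HFD without passing, Fkbp5 at -0.49 ± 0.13 (adjusted p = 0.077), Tsc22d3 at -0.44 ± 0.12 (adjusted p = 0.087) and Zbtb16 at -0.28 ± 0.12 (adjusted p = 0.23). The median of the list was -0.19.

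Genes for proteins that meet serum amyloid A after secretion were read from 2 lists. Of 6 receptors reported to bind it, 1 rose, Tlr4, the lipopolysaccharide receptor, at 0.50 ± 0.10 (log2 difference, SE; limma adjusted p = 0.033), a call that leaving out any 1 array other than HFD replicate 2 ended. The lipoprotein receptor Scarb1 differed by 0.30 ± 0.07 (adjusted p = 0.054), Tlr2 by 0.36 ± 0.11 (adjusted p = 0.11) and Cd36 by -0.28 ± 0.16 (adjusted p = 0.38). Of 11 other genes of high density lipoprotein 1 rose and 2 fell.

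Pltp, the phospholipid transfer protein, had log2 values of 11.61, 11.19 and 11.51 in HFD, against 12.54, 12.60 and 12.41 in RD, and Apom, which carries sphingosine phosphate, had 10.50, 10.40 and 10.42 in HFD, against 10.88, 10.83 and 10.98 in RD. Both fell, by 1.08 ± 0.11 and 0.46 ± 0.07 on the log2 scale (SE; limma adjusted p = 0.0018 and 0.0099), and both calls held without any 1 array. The cholesterol exporter Abca1 rose by 0.58 ± 0.10, lost without RD replicate 2 or 3. Apoc1 differed by 0.13 ± 0.06 (adjusted p = 0.29). Apoa1, the main structural apolipoprotein of high density lipoprotein and chosen after its values were seen, differed by -0.01 ± 0.06.

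**Figure D4:**
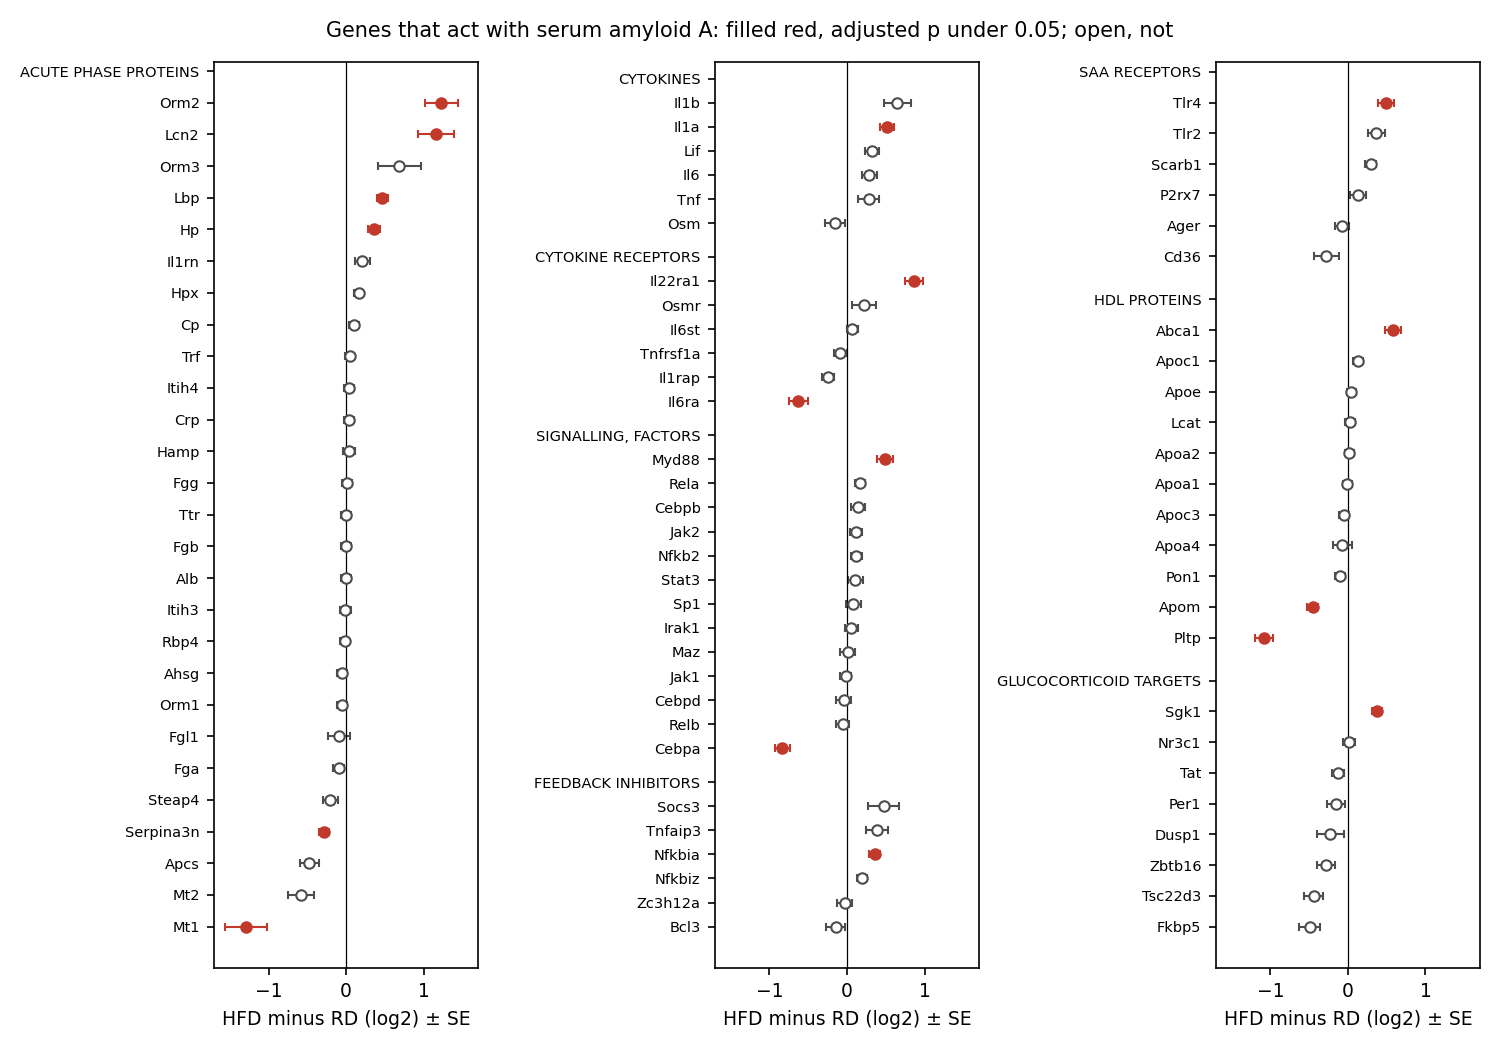
Difference between HFD and RD (log2, points with SE) of 83 list entries for genes that act with serum amyloid A, grouped by role, with filled red points for an adjusted p under 0.05 in limma. Of these entries 11 rose and 6 fell, against 3.11% and 2.24% of all genes, and 12 of the 17 calls were lost without at least 1 array. The largest rises are those of Orm2 at 1.23 and Lcn2 at 1.16.

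The tissue label was checked against cell type markers. The 7 hepatocyte markers measured had mean log2 values of 13.90 to 13.96 per array in HFD and 13.95 to 13.98 in RD. Of these markers 0 changed in limma, also 0 at an unadjusted p under 0.05. For 3 of the 7, all HFD values lay below all RD values, as for 11.7% of all genes. These were Tat, Cps1 and Cyp2e1, at log2 differences of -0.13, -0.05 and -0.04. Even the dimmest of the 7, Hnf4a, averaged 13.46 and lay at the 99.3rd percentile of all genes in RD. Whether values this high could still register a change was not tested. In liver RNA, fewer cells of a type and less RNA per cell cannot be told apart. Some markers of Kupffer cells, the resident macrophages of the liver, were also higher in HFD. Of 10 markers 5 rose and 0 fell, against 3.11% and 2.24% of all genes. Their mean log2 value per array was 9.90 to 10.38 in HFD and 9.56 to 9.66 in RD, highest in HFD replicate 1. Cd5l rose by 0.85 ± 0.12 and Timd4, a phagocytic receptor, by 0.67 ± 0.11 (log2 difference, SE; limma adjusted p = 0.0066 and 0.016), and the dimmest marker, Marco, by 0.89 ± 0.21 (adjusted p = 0.046). The markers that did not pass are given after their values were seen (limma adjusted p of 0.054 to 0.75). Clec4f (0.29 ± 0.09), Vsig4 (0.26 ± 0.10), C1qa (0.47 ± 0.12) and Folr2 (0.43 ± 0.14) had higher means in HFD. Cd163 had a lower mean in HFD (-0.10 ± 0.13). Adgre1 (0.82 ± 0.17) and C1qb (0.64 ± 0.13), also given after their values were seen, were the others that rose. The count of 5 rises was 1 without RD replicate 1 or 2 and 2 without RD replicate 3 or HFD replicate 3. Its highest value was 7, with 1 other array left out.

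Markers of bile duct cells were higher in HFD as well. All 4 measured rose, against 3.11% of all genes, with mean log2 values per array of 7.89 to 8.09 in HFD and 7.45 to 7.53 in RD. Krt19 rose by 0.70 ± 0.14 and Epcam, the dimmest, by 0.54 ± 0.10. That count was 0 without HFD replicate 1 or RD replicate 1 and 1 without each other single array. The part of either cell type in the serum amyloid rises was not tested.

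Markers of other cell types gave 0 calls in limma. For 9 monocyte and neutrophil markers the mean log2 value per array was 5.81 to 6.02 in HFD and 5.77 to 5.85 in RD (1 at an unadjusted p under 0.05), and the dimmest was Cxcr2 at 4.49. For 4 adipocyte markers it was 5.99 to 6.12 in HFD and 6.19 to 6.30 in RD (1 at an unadjusted p under 0.05), with Adipoq lowest at 5.07, so every HFD array was below the RD arrays. For 5 lymphocyte markers it was 6.66 to 7.24 in HFD and 6.70 to 6.74 in RD, with HFD replicate 1 alone at 7.24 and Ms4a1 the dimmest marker at 5.36. For 6 sinusoidal endothelial markers it was 10.45 to 10.62 in HFD and 10.40 to 10.49 in RD, and for 6 stellate cell markers 9.85 to 9.92 in HFD and 9.73 to 9.91 in RD. These last 3 lists also had 0 genes at an unadjusted p under 0.05. HFD replicate 1, the array with the highest Saa1, Saa2 and Saa3 values, had the highest mean of the HFD arrays in 7 of the 8 marker lists, all but the adipocyte list. Saa1, Saa2 and Saa3 passed the test without it, at the log2 differences given above.

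**Figure D5:**
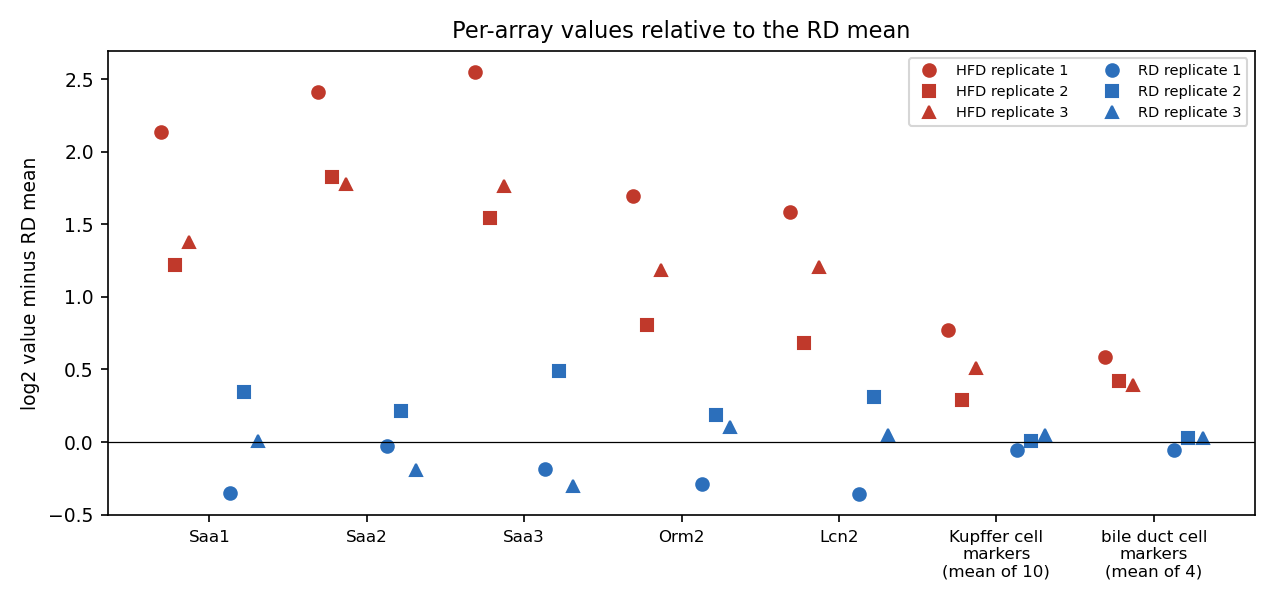
Log2 value of each array minus the RD mean for Saa1, Saa2, Saa3, Orm2, Lcn2 and the mean of the Kupffer and bile duct cell markers, with HFD in red, RD in blue and 1 symbol shape per replicate number. HFD replicate 1 (red circle) is the highest array in all 7 sets of values, at 2.13 for Saa1, 2.41 for Saa2 and 2.55 for Saa3.

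Genes with the profile most like each member were found by the root mean square difference between log2 values over the 6 arrays, after each gene was centred on its own mean. For Saa1 they were Orm2 (0.21), Lcn2 (0.24), the carbonyl reductase Cbr3 (0.26), the phosphatase Dusp6 (0.29) and the annexin Anxa2 (0.30), and Saa3 and Saa2 themselves lay at 0.24 and 0.29. For Saa2 the nearest was Saa3, at 0.19, with 0 genes nearer. Beyond the family Saa2 was followed by the bile acid exporter subunit Slc51b (0.28), the efflux pump Abcb1a (0.33), Cbr3 (0.34), Rnf186 (0.37) and the quinone reductase Nqo1 (0.38). For Saa3 the family members Saa2 and Saa1 lay nearest, at 0.19 and 0.24. Beyond the family it was followed by Cbr3 (0.40), Slc51b (0.41), Orm2 (0.43), Abcb1a (0.44) and Anxa2 (0.44). Predicted Gm and Rik genes, small RNA genes and olfactory and vomeronasal receptor genes were left out of these named genes. This measure depends both on the diet difference and on the replicates within each diet, and 6 arrays give it little detail. Orm2, with a log2 difference of 1.23, lay nearer to Saa1 (1.58) than Cbr3 did, with 1.59. Saa4 was nearest to Slc35a2, Synj1, Gpn3, Poldip2 and Fbxo32, all at 0.02, with log2 differences of -0.09 to -0.06 and 0 calls among them in limma.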

How the data were processed

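Values were used on the log2 scale as the authors deposited them, 1 per array for each probe set. The sources used here do not name the summarisation, the normalization or the software. Base 2 follows from their range of 2.28 to 14.86. Per the labels' protocols, RNA was prepared with a GeneChip terminal kit for labelling. Array medians were 7.06 to 7.11. The number of arrays limits the precision. No detection call, scan date or batch was used here.

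Of 35512 probe sets, 21789 had 1 symbol in the platform annotation, and 21698 of these were matched by identifier to RefSeq (GRCm38.p6). The brightest probe set of each gene by mean over 6 arrays was used. Diet was the only term of the limma 3.58.1 fit of the 19938 genes (R 4.3.3). Its two-sided p values were adjusted after Benjamini and Hochberg across the 19938, and those under 0.05 were called. Each difference is HFD minus RD, with its moderated SE. Promoters were aligned with Biopython 1.88.

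Named genes are the 4 members, up to 4 per pathway list and 2 per marker list by smallest unadjusted p, and the 5 nearest profiles per member. The members and lists were chosen with earlier results of these data known. Recovery was checked on simulated arrays of 19938 genes, with a diet difference set in 200 of them. Of 50 genes per size of log2 change, 64% were recovered at 0.5, 92% at 1, 98% at 1.5 and 100% at 2. There were 7 false calls. Some changes of 0.5 to 1.5 were missed, and changes below 0.5 were not simulated. A list gene that did not pass may therefore still have changed by amounts of either kind. The simulated noise was independent between genes and only 200 genes were changed, so these shares may not hold for the real arrays. The deviations of same-numbered arrays of the 2 diets correlated at r of -0.11, 0.00 and 0.12 across genes for replicates 1, 2 and 3. Only 1 of the 3 pairs was above 0.1, so the numbers were not treated as pairs. Alternatives covered normalization, filters, probe sets, priors, weights, the replicate block, a minimum fold and each array left out.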

Additional observations from a re-analysis of the deposited data

How the results depend on the processing

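The rises of Saa1, Saa2 and Saa3 kept their direction under each of the alternatives run, and Saa4 passed under none of its 15. Saa2 passed under all of its 15, with log2 differences of 1.80 to 2.12. With every row tested, the 1.58 of Saa1 and the 1.95 of Saa3 no longer passed (adjusted p = 0.065 and 0.053 in limma), and the calls over all rows were 168 higher and 173 lower, against 621 and 446 among genes. Against a fold of 1.5 the same differences, 1.58 and 1.95, also did not pass. Saa1 was too dim to be tested among the brighter genes. With the replicate number as a block (replicate block), Saa1, Saa2 and Saa3 passed (adjusted p = 0.040, 0.0029 and 0.023, limma), while 318 genes were higher and 245 lower; no pairing is stated in the labels and not every same-numbered pair of arrays deviated together.

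Counts in the lists moved more. With every row tested or with the block, 1 acute phase gene was higher; 0 were lower with every row and 1 with the block, and 1 was lower after median centring. Under both, 0 cytokines, signalling proteins, feedback inhibitors, serum amyloid receptors or lipoprotein genes were higher and 0 cytokine receptors were lower, and with every row 0 glucocorticoid genes were higher. After quantile normalization or with array weights 2 cytokines and 2 serum amyloid receptors were higher, and with a trend and robust prior 2 receptors. Among the brighter genes or with that prior 1 glucocorticoid gene was lower.

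Without 1 array, log2 differences ran from 1.30 to 1.75 for Saa1, 1.80 to 2.12 for Saa2, 1.65 to 2.20 for Saa3 and -0.10 to -0.06 for Saa4. The change of Saa2 minus that of Saa3 ran from -0.084 to 0.15, turning negative without HFD replicate 2 (-0.06) or RD replicate 2 (-0.084). Genes higher numbered 197 to 371 and genes lower 178 to 273. In the lists, 1 to 4 acute phase genes were higher and 0 to 1 lower, 0 to 2 cytokines were higher and 0 to 1 cytokine receptors lower. Of the signalling proteins, feedback inhibitors, serum amyloid receptors, lipoprotein genes and glucocorticoid genes, 0 to 1 per list were higher. Of 17 calls in the lists, 12 were lost without at least 1 array. The stellate cell marker Rgs5 ran from -0.0043 (without HFD replicate 1) to 0.13. The cause of these moves was not tested.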
